A study of Mus musculus with 30 samples.

Results

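The cytosolic chaperonin CCT (also called TRiC) was followed through microglial transcriptomes by the genes of its 8 subunits, *Tcp1* (alpha), *Cct2* (beta), *Cct3* (gamma), *Cct4* (delta), *Cct5* (epsilon), *Cct6a* (zeta), *Cct7* (eta) and *Cct8* (theta). They were taken by name from the 47643 genes of the deposited table, by a rule that uses names alone, although the question put to them arose from the HSP genes of these same libraries. CCT is a barrel of stacked rings that each hold every subunit once. It encloses newly made proteins, actin and tubulin above all, and uses ATP to fold them, and it receives many of them from prefoldin and from HSP70. Microglia, the resident macrophages of the brain, depend on actin and tubulin for the movement of their processes. The question asked of the subunits was whether the lower level of HSP70 and HSP90 genes in male mice without *Bin1* in microglia extends to this chaperonin.

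The data hold RNA-seq of 30 libraries of FACS-sorted CD11b+ CD45med microglia, each from a mouse with its own number. Homo mice (*Bin1* flox/flox::*Cx3Cr1*-Cre+) comprised 5 males (Homo-M) and 5 females (Homo-F), Het mice (*Bin1* wt/flox::*Cx3Cr1*-Cre+) 6 males (Het-M) and 5 females (Het-F), and mice labelled WT 5 males (WT-M) and 4 females (WT-F). The study gives the WT mice as *Bin1* wt/flox without Cre and, elsewhere, as WT littermates. The mice were 3 months old. All Cre-positive mice therefore carry both the Cre allele, which sits in *Cx3cr1* and is active in microglia and other macrophages, and the loss of a *Bin1* copy, and these cannot be told apart in a contrast with WT. The sample records instead carry a protocol for cultures of newborn microglia, and which of the accounts is right was not tested.

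*Bin1* was at 258.3 ± 21.4 FPKM (SD, n = 5) in WT-M, 120 ± 36.3 (SD, n = 6) in Het-M and 49.7 ± 6.82 (SD, n = 5) in Homo-M mice, with like levels in females. The libraries labelled Het-M-0199 and Het-F-0206 had *Bin1* at the level of Homo mice, 51.8 and 42.7 FPKM, and they are left out in an alternative fit. In Het-F-0206 *Cx3cr1*, the gene that carries Cre, was at 13.9 FPKM against 1048 to 1243 in the other Het-F libraries, so its Het label is in doubt and the Het-F contrasts include it. The label of Het-M-0199 is in doubt too, as *Bin1* was at 117 to 157 FPKM in the other Het-M and 39.9 to 55.6 in the Homo-M libraries. The Het-M contrasts and the comparison of early and late numbers include it as Het. All 8 microglial markers were present in each group. The summed FPKM of 3 lymphocyte markers was at most 0.670 in any library, with T-cell *Cd3e* at 0 in all libraries. The summed FPKM of 8 neutrophil markers had a median of 74.2 in WT-M (46.5 to 358) and 0.575 in Homo-M mice (0 to 81.8), where *Retnlg* was at 0 throughout. Choroid plexus markers (3 genes) had a median sum of 71.4 FPKM in WT-M and 11.3 in Homo-M mice. Markers of other brain cells reached higher sums in some Cre-positive mice. The 3 oligodendrocyte markers summed to 12.13 to 20.25 FPKM in WT-M, 17.08 to 105.3 in Het-M and 12.93 to 65.26 in Homo-M libraries. The 3 astrocyte markers summed to 1.44 to 4.30, 1.67 to 25.6 and 1.58 to 15.1 FPKM in the same order. The 3 neuron markers summed to 2.295 to 5.757, 5.011 to 16.7 and 3.226 to 5.617 FPKM. In females the highest oligodendrocyte, astrocyte and neuron sums were 30.69, 6.391 and 4.457 in WT-F and 42.91, 11.68 and 15.74 in Homo-F. In Het-F they were 21.96, 3.518 and 4.899. The 5 border macrophage markers had a median sum of 31.17 FPKM in WT-M, 15.42 in Het-M and 17.56 in Homo-M mice. Mouse numbers left a gap between WT-F-0122, the last called early here, and WT-M-0176, the first called late, and early numbers were carried by 3 of the 5 Homo-M, 2 of the 6 Het-M, 1 of the 4 WT-F and 0 of the other mice. Depth relative to the median library, read from the smallest steps of low genes, was 0.669 to 1.41, with a median of 1.17 in WT-M and 0.921 in Homo-M mice.

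The subunit genes lie on 8 different chromosomes. RefSeq promoter windows of GRCm38.p6 were found for 7 of the subunits (9 windows), and *Cct4* was not matched. The 250 bases before each start were searched on both strands for the core of the heat shock element, TTCNNGAA or GAANNTTC, each of which reads the same on either strand, and for the CCAAT box, written CCAAT or ATTGG. Heat shock factors, which bind the former, drive HSP70 and HSP90 genes under stress. A heat shock core was found in 2 of the 9 windows, 1 each of *Cct2* and *Cct5*, and in 12.8% of all 32851 windows. A CCAAT box was found in 4 of the 9, those of *Tcp1*, *Cct3*, *Cct6a* and *Cct7*, and in 33.8% of all windows. *Cct7* and *Cct8* are shown because their levels moved most closely together across libraries, and the part before each start that lies in no annotated exon is given, with the CCAAT boxes in capitals. The *Cct7* stretch (chr6:85451284-85451504, plus strand) holds 3 of them and the *Cct8* stretch (chr16:87495874-87495998, minus strand) holds 0.
Cct7: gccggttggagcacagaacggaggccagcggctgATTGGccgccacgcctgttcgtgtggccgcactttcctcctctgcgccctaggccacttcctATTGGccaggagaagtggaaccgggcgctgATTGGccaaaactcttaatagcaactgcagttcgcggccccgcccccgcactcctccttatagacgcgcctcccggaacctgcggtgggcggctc
Cct8: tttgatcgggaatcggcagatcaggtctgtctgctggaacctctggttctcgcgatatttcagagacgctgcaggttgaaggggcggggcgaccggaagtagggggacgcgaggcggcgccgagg

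The heat shock cores of *Cct2* (chr10:117063400-117063427, minus strand) and *Cct5* (chr15:31601863-31601890, minus strand) are shown in capitals with 10 bases on either side, since the HSP genes are the comparison here. They began 42 and 34 bases before the start of their windows' RefSeq transcripts. These starts differ from those of GENCODE M21. There *Cct2* starts at chr10:117063814, so its core lies inside the gene, and the other *Cct2* window held 0 cores. *Cct5* starts at chr15:31601804, and its core lies beyond the start of *Fam173b*, an opposite-strand gene that starts 48 bases before *Cct5*. The windows of *Tcp1* and *Cct6a* also lie inside the GENCODE span of their gene.
Cct2: cccaagtgaaGAAGTTTCtagcaggacc
Cct5: cagcggccgaTTCCAGAAgctactctgc

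These letters are a description and say nothing of whether a factor binds. Another feature is the layout of the genes. In GENCODE M21, 5 of the 8 subunits have a protein-coding gene on the opposite strand whose start lies within 1000 bases of their own, against 16.6% of the 12592 protein-coding genes tested. The partners are *Mrpl18* for *Tcp1*, *Tsacc* for *Cct3*, *Fam173b* for *Cct5* (48 bases apart), *Psph* for *Cct6a* and *Pradc1* for *Cct7*. *Cct8* faces a non-coding gene, *B130034C11Rik*, 126 bases away. *Mrpl18*, *Psph* and *Pradc1* overlap their subunit, as *Usp16* overlaps the end of *Cct8*, and the libraries do not mark strand, so reads of the overlap can belong to either gene. These 4 genes had means of 23.7, 7.31, 5.94 and 16.5 FPKM.

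All 8 subunits were well expressed in every library. Compared per kilobase as FPKM, *Cct2* had the lowest mean over the 30 libraries, 28.4 ± 3.80 (SD), followed by *Tcp1* with 42.3 ± 3.91 (SD). The other 6 lay close together, from *Cct5* (65.5 ± 7.78, SD) over *Cct4* (68.1 ± 6.76, SD), *Cct3* (68.9 ± 7.33, SD), *Cct7* (75.0 ± 9.42, SD) and *Cct8* (76.7 ± 8.26, SD) to *Cct6a* (82.6 ± 8.35, SD). *Cct2* was below *Tcp1*, and *Tcp1* below *Cct5*, in 30 of 30 libraries, so these 3 levels are separate. Above *Cct5* the order was not held: the upper neighbour of each pair was higher in only 17 (*Cct8* over *Cct7*) to 23 (*Cct7* over *Cct3*) of the 30 libraries. Paralogs of narrow expression were near 0, *Cct6b* at 0.249 ± 0.140 FPKM (SD, n = 5) in WT-M mice and *Cct8l1* at 0.0185 ± 0.0257 (SD, n = 5). Named pseudogenes of the subunits that are in the table had a mean of at most 0.151 FPKM, and reads shared with them can still be misplaced. For *Cct6a*, GENCODE M21 gives a span of 59374 bases and the type processed transcript. The authors' own gene model behind the deposited FPKM was not looked at, so it remains uncertain for this gene.

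**Figure D1:**
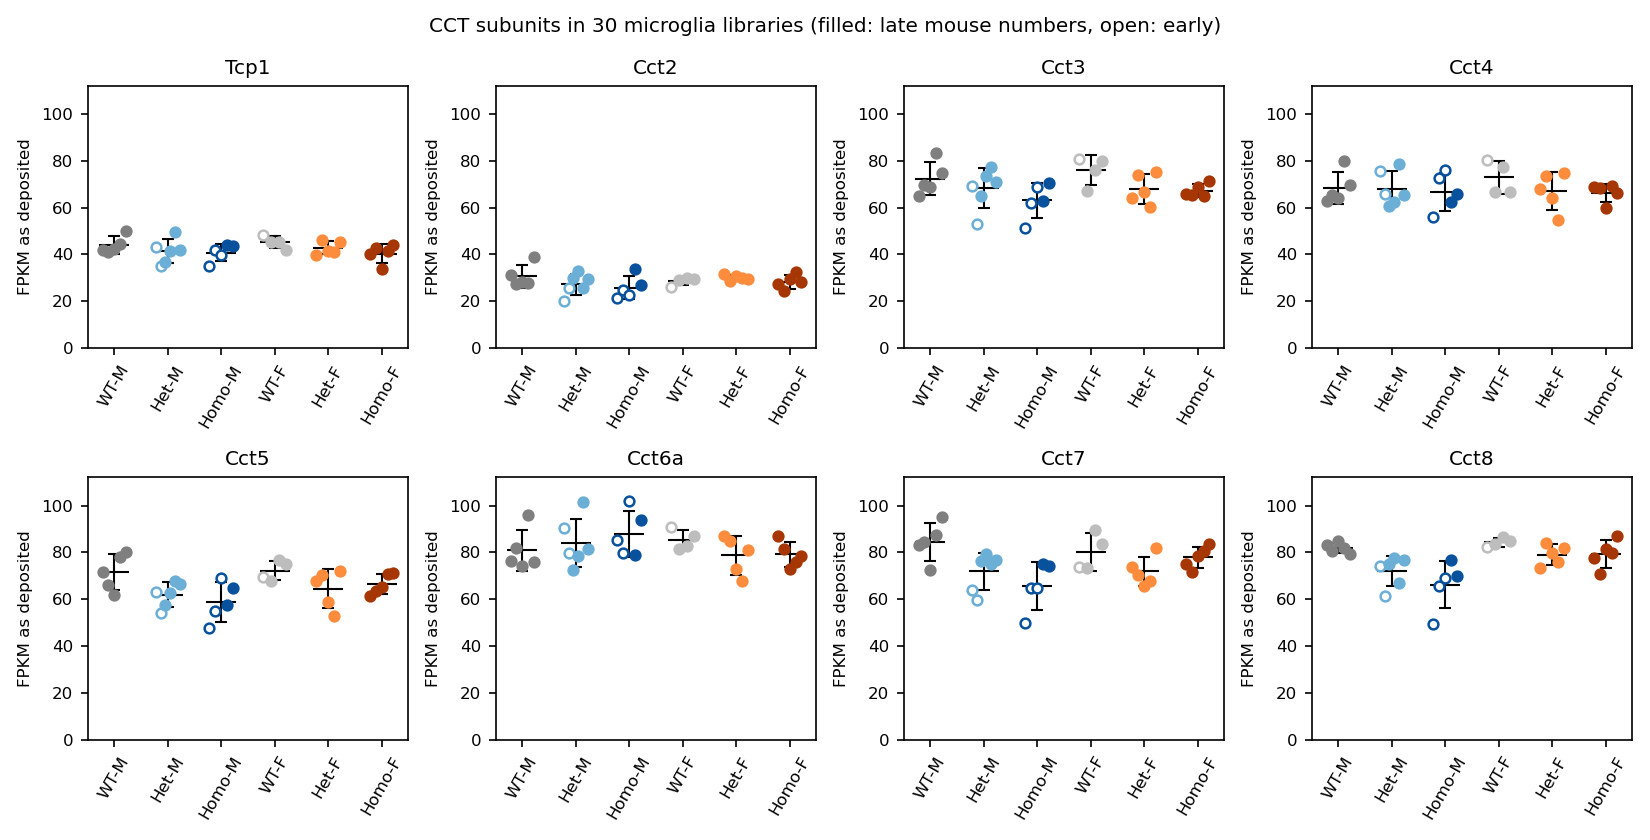
FPKM as deposited (linear y axis from 0) of each CCT subunit in the 30 libraries by group. Points are single mice (filled: late numbers, open: early numbers) and bars are mean ± SD. *Cct8* is the subunit whose Homo-M libraries (49.5 to 76.7) all lie below the WT-M libraries (79.3 to 84.9), and *Cct6a* shows no such fall.

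In Homo-M mice, 3 of the 8 subunits were lower than in WT-M mice at an adjusted p of 0.05 by limma, *Cct5*, *Cct7* and *Cct8*, and 0 were higher. Lower calls were made for 1.27% of the 16897 genes tested. The median log2 fold change of the 8 subunits was -0.31, against 0.03 over all genes tested and -0.04 over the 6388 genes with a mean of at least 10 FPKM. The changes were modest, and with a fold change above 1.5 as well 0 subunits remained (1.81% of genes passed both limits). At an unadjusted p below 0.05 there were 5 subunits, against 22.5% of the genes tested. In bulk RNA, fewer cells of a type and less RNA per cell cannot be told apart.

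*Cct8*, which encodes the theta subunit, was at 83.1, 80.7, 84.9, 81.8 and 79.3 FPKM in the 5 WT-M libraries and at 49.5, 65.6, 68.9, 76.7 and 69.8 in the 5 Homo-M libraries. The groups did not overlap. Genes that were lower without overlap made up 1.37% of those tested. The mean fell by 19.3% on FPKM as deposited (exact permutation test, two-sided, p = 0.00794, the smallest that 5 against 5 allows). On the scaled log2 values limma gave -0.41 with a standard error of 0.11 (adjusted p = 0.0420).

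*Cct7*, of the eta subunit, had 83.0, 84.6, 72.5, 87.6 and 94.9 FPKM in WT-M and 49.7, 64.8, 64.7, 74.8 and 74.3 FPKM in Homo-M libraries. The groups overlapped slightly, as the 2 late numbered Homo-M libraries lay just above the lowest WT-M library. By limma the log2 fold change came to -0.46, with a standard error of 0.12 (adjusted p = 0.0413), and the exact permutation test on FPKM gave p = 0.0238.

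*Cct5*, of the epsilon subunit, had 71.8, 66.2, 61.7, 78.1 and 80.3 FPKM in WT-M and 47.6, 54.7, 69.1, 57.7 and 64.8 FPKM in Homo-M libraries. Here too the groups overlapped, with 3 Homo-M libraries below all WT-M libraries. Limma put the change at -0.37 on the log2 scale, with a standard error of 0.10 (adjusted p = 0.0441), and p was 0.0476 in the exact permutation test on FPKM. In these 3 subunits and in *Cct3* the lowest of all 30 libraries was Homo-M-0093, which also had the lowest relative depth, 0.669.

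*Cct6a*, of the zeta subunit, stood at the other end. It was at 76.5, 82.0, 74.1, 95.9 and 75.8 FPKM in WT-M and at 85.4, 79.8, 102, 78.7 and 93.9 FPKM in Homo-M libraries. No Homo-M library lay below the WT-M range, and limma gave a log2 fold change of 0.04, with a 95% confidence interval of -0.13 to 0.20 (adjusted p = 0.818). As a share of the summed FPKM of the 8 subunits, *Cct6a* was 15.1 ± 1.18% (SD, n = 5) in WT-M, 17.0 ± 1.57% (SD, n = 6) in Het-M and 18.6 ± 2.21% (SD, n = 5) in Homo-M mice. The share ran from 13.4 to 16.6% in WT-M and from 16.0 to 21.6% in Homo-M libraries, with overlap. All WT-M mice had late numbers, so genotype and number range are mixed in these shares. In females the share was 15.7% in each group. The share was looked at after the values were seen and is given without a test.

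The other 4 subunits did not pass. *Cct2* (beta) was at 30.6 ± 4.80 FPKM (SD, n = 5) in WT-M and 25.8 ± 4.89 (SD, n = 5) in Homo-M mice, a log2 change of -0.33 (limma, adjusted p = 0.174). For *Cct3* (gamma), with 72.3 ± 7.02 and 63.1 ± 7.64 FPKM (SD, n = 5 each), it was -0.28 (limma, adjusted p = 0.112). *Tcp1* (alpha) gave -0.19 (95% confidence interval -0.39 to 0.00) and *Cct4* (delta) -0.12 (-0.30 to 0.05). *Cct2*, *Cct4*, *Cct5* and *Cct7* encode the side of the ring that binds ATP tightly and the other 4 the side that binds it weakly, and subunits that passed were found on both sides.

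The adjusted p of these 3 subunits lay close to the threshold. Leaving out each Homo-M or WT-M library in turn gave 0 to 4 subunits, and 0 in 7 of the 10 fits (without Homo-M-0093, Homo-M-0097, Homo-M-0109, WT-M-0176, WT-M-0177, WT-M-0178 or WT-M-0258). The direction of *Cct5*, *Cct7* and *Cct8* was negative in all 10, and the median over the 8 subunits stayed between -0.35 and -0.22, the latter without Homo-M-0093. In the 7 fits without a call, 89 to 342 genes passed over the whole table, against 477 with all libraries. The WT-M mice all had late numbers. With the 2 late numbered Homo-M libraries alone, 0 subunits passed, as did 0.0543% of all genes, and the median log2 fold change was -0.10, from -0.22 for *Cct5* to 0.10 for *Cct6a*. With the number range in the fit the median was -0.12, again with 0 subunits, where 0.237% of genes passed. A covariate for the level of long non-coding RNA (an index that sets the mean log2 value of 2631 lncRNA genes against 12592 protein-coding ones, with medians of -3.30 in WT-M and -2.93 in Homo-M mice) gave 0 subunits and a median of -0.16, where 0.675% of genes passed. The part of the markers of other cell types, of depth and of the number range in the result was not tested beyond these fits.

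**Figure D2:**
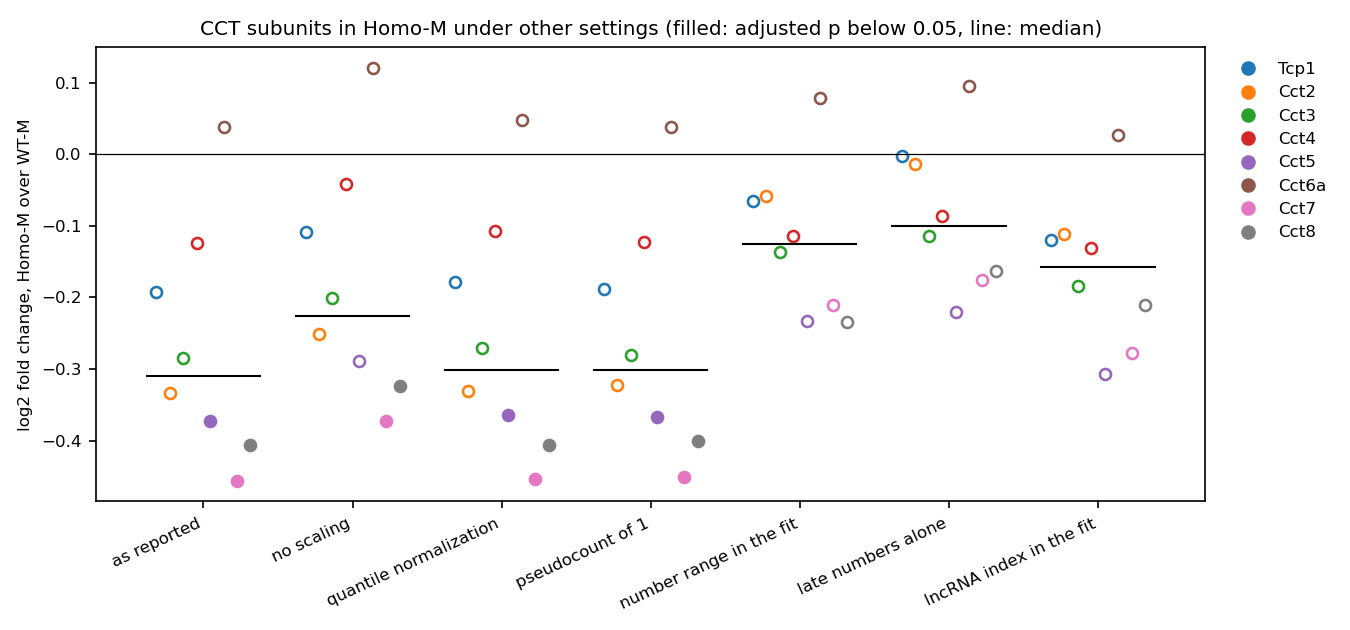
Log2 fold change of each subunit between Homo-M and WT-M mice (y axis) under the reported fit and 6 other settings (x axis), filled where the adjusted p is below 0.05, with the median as a line. The median is -0.31 as reported and -0.10 with late numbered mice alone, where no subunit passes.

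Early and late numbers were also compared directly among Het-M and Homo-M mice, with genotype as a term. In early numbered mice 4 subunits were lower at an adjusted p of 0.05 by limma, *Tcp1*, *Cct2*, *Cct3* and *Cct7*, where 6.9% of the 17326 genes tested were lower. The median over the 8 subunits was -0.33. The log2 difference was -0.54 for *Cct2* (standard error 0.13, adjusted p = 0.0207) and -0.48 for *Cct7* (standard error 0.10, adjusted p = 0.0162). *Cct7* was at 59.6 and 64.1 FPKM in the 2 early and 75.1 to 79.5 in the 4 late Het-M libraries, and at 49.7 to 64.8 in the 3 early and 74.3 and 74.8 in the 2 late Homo-M libraries, so that early and late did not overlap within either genotype, as was the case in the lower direction for 3.05% of genes. *Cct4* (-0.08) and *Cct6a* (-0.12) differed least, and without scaling both turned to the other direction (0.08 and 0.04). The lncRNA index was higher in early mice too, at -2.93 to -2.59 in Homo-M and -2.89 and -2.59 in Het-M, against -3.25 and -3.17 in late Homo-M and -3.54 to -2.77 in late Het-M mice. With this index as a covariate 0 subunits passed and the median was -0.23, and 0.00577% of genes passed. The count was also 0 without Het-M-0100 or Homo-M-0189, where the median was -0.37 and -0.31 and 1 gene of the whole table passed in each fit, and 2 without Het-M-0108, Het-M-0199, Het-M-0210, Homo-M-0093 or Homo-M-0190. What the number ranges stand for is not given.

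In Het-M mice 0 of the 8 subunits passed against WT-M by limma (lower calls, 0.0296% of genes; unadjusted p below 0.05, 3 subunits against 14.2% of genes). The point estimates were all below 0, with a median of -0.21. Estimates below 0 were held by 48.1% of all genes tested and 55.0% of those at 10 FPKM or more. *Cct8* was at 61.5, 74.5 and 77.7 FPKM (lowest, median and highest of 6) and did not overlap with WT-M, as was the case in the lower direction for 0.326% of genes (exact permutation test, p = 0.00433, the smallest that 6 against 5 allows). *Cct7* was at 59.6, 75.6 and 79.5 FPKM, overlapping with WT-M (exact permutation test, p = 0.0303). By limma their log2 fold changes were -0.27 and -0.31 (adjusted p = 0.295 and 0.277). *Cct6a* was at -0.02 on this scale, while its mean FPKM as deposited was 3.93% above WT-M, so its direction turned with the scaling. Homo-M and Het-M share the WT-M libraries, and compared directly they differed in 0 subunits (called genes, 0.0%; unadjusted p below 0.05, 0 subunits against 3.85% of genes), with log2 differences between -0.15 for *Cct7* and 0.06 for *Cct6a*.

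In Homo-F mice the subunits were at or slightly below WT-F, and 0 of 8 passed by limma (lower calls, 0.00592% of genes; unadjusted p below 0.05, 0 subunits against 3.49% of genes). The log2 fold changes ran from -0.18 for *Tcp1* to -0.02 for *Cct2*, with a median of -0.12. *Cct8* was at 82.1, 83.7, 86.5 and 84.9 FPKM in WT-F and 77.8, 70.8, 81.4, 79.7 and 86.9 FPKM in Homo-F libraries, with overlap. Its interval, -0.33 to 0.15 on the log2 scale, includes part of the range seen in males. No subunit was without overlap, a pattern held in the lower direction by 0.663% of genes. By exact permutation tests on FPKM, *Tcp1* and *Cct3* gave p = 0.0476 each and the other 6 subunits at least 0.0952, where 5 against 4 allows 0.0159.

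In Het-F mice 0 of 8 subunits passed as well (lower calls, 0.0% of genes; unadjusted p below 0.05, 0 subunits against 3.95%), with a median log2 fold change of -0.13 and values from -0.18 for *Cct5* to 0.07 for *Cct2*. No subunit was without overlap with WT-F (0.633% of genes lower without overlap), and the lowest exact permutation p was 0.0635, for *Cct8*. Homo-F and Het-F differed in 0 subunits (called genes, 0.0118%; unadjusted p below 0.05, 0 subunits against 2.06% of genes). The exact permutation tests of the subunits number 32 and are not adjusted for one another.

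Whether Homo males and Homo females changed unequally was put to an interaction term. It passed for 0 subunits (called genes, 0.0%), and 1 subunit, *Cct7*, had an unadjusted p below 0.05, against 9.29% of genes. The change of *Cct7* in males minus that in females was -0.42 on the log2 scale (95% confidence interval -0.78 to -0.05, adjusted p = 0.528 by limma). *Cct8* gave -0.31 (-0.64 to 0.02), and the median over the subunits was -0.18. The male contrast passing for 3 subunits and the female one for 0 thus does not show that the sexes differ. With late numbered mice alone the median interaction was 0.03, and with the number range in the fit it was 0.05.

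**Figure D3:**
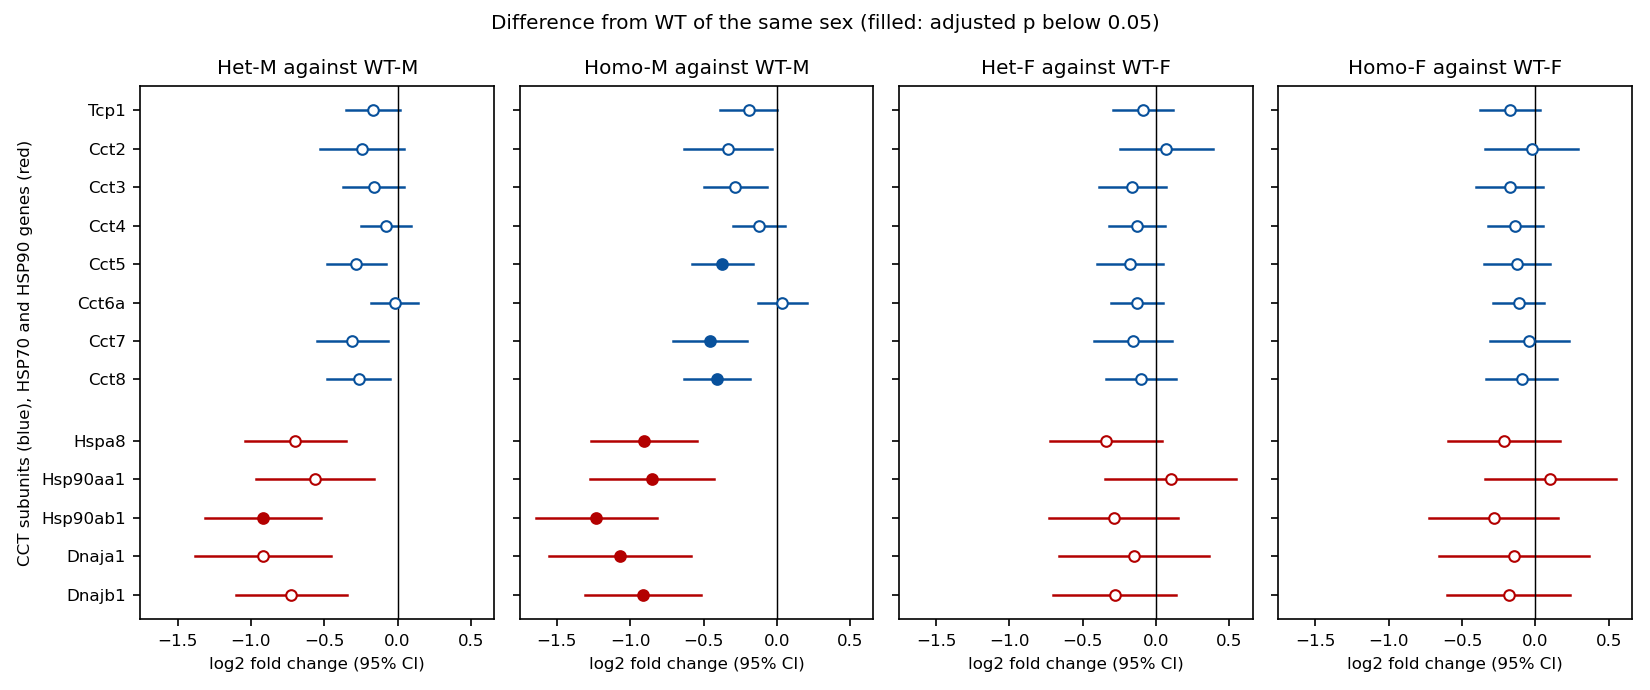
Log2 fold changes with 95% confidence intervals (x axis) of the 8 CCT subunits (blue) and 5 HSP70 and HSP90 genes (red) in Het and Homo mice against WT of the same sex, filled where the adjusted p by limma is below 0.05. In Homo-M mice the subunits lie between -0.46 and 0.04 and the HSP genes between -1.23 and -0.85.

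The size of the change was then set against the HSP genes in the same libraries. The 5 HSP genes that the study names (*Hspa8*, *Hsp90aa1*, *Hsp90ab1*, *Dnaja1* and *Dnajb1*) were all lower in Homo-M mice, with a median log2 fold change of -0.92, and were chosen on these samples. *Hspa8*, the constitutive HSP70, was taken as the reference, and its log2 value was taken off that of each gene in each library. Relative to *Hspa8*, 8 of 8 subunits were higher in Homo-M than in WT-M mice by limma, from 0.45 for *Cct7* (standard error 0.16, adjusted p = 0.0134) to 0.95 for *Cct6a* (standard error 0.20, adjusted p = 0.000437), with a median of 0.60. This is not particular to CCT, since 76.1% of all genes were higher on this scale, with a median of 0.94. All subunits but *Cct6a* thus lay between *Hspa8* and the median gene. *Cct6a*, at 0.95, stood at the level of the median gene. All 8 also passed against *Hsp90ab1*, from 0.78 to 1.27, as did 86.0% of genes in either direction. The same held with late numbered mice alone, where the median was 0.70 and 44.1% of genes passed. *Cct7* was the one subunit lost when a library was left out, without WT-M-0178.

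The summed FPKM of the subunits was 1.00, 0.824, 0.789, 1.26 and 0.968 times that of *Hspa8* in the WT-M libraries. In the Homo-M libraries it was 1.38, 1.30, 1.73, 1.52 and 1.58 times. The groups did not overlap, and neither did they for 50.6% of all genes set over *Hspa8* in this way. *Hspa8* itself was at 460 to 630 FPKM in WT-M and 286 to 358 in Homo-M libraries, while the summed FPKM of the subunits overlapped. Het-M mice were at 1.36 ± 0.110 (SD, n = 6), overlapping with both. Females were at 1.04 ± 0.164 (SD, n = 4) in WT-F, 1.22 ± 0.224 (SD, n = 5) in Het-F and 1.13 ± 0.233 (SD, n = 5) in Homo-F mice. The sum alone was 534 ± 34.9 FPKM (SD, n = 5) in WT-M and 475 ± 48.0 (SD, n = 5) in Homo-M mice, from 396 in Homo-M-0093 to 579 in WT-M-0202.

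**Figure D4:**
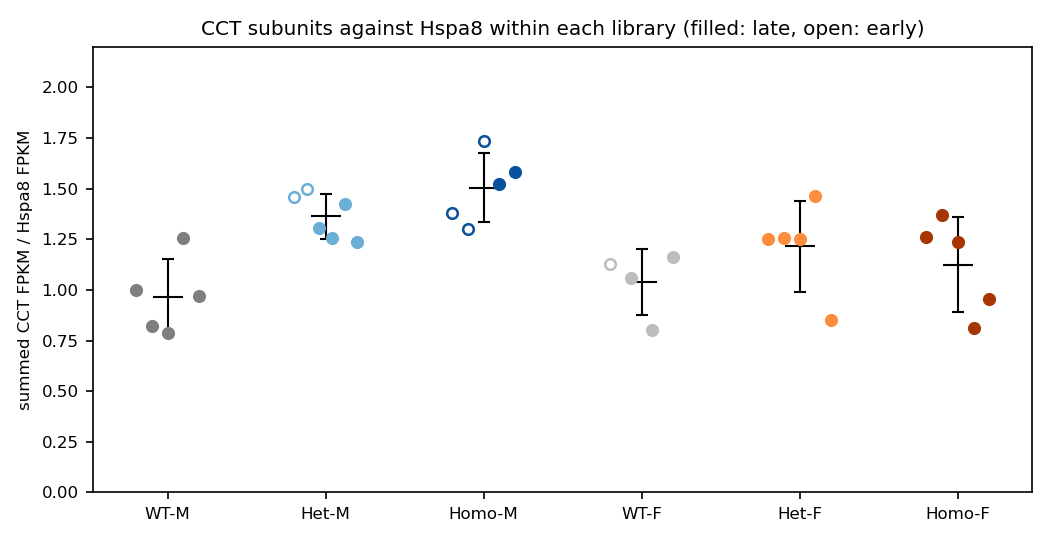
Summed FPKM of the 8 CCT subunits divided by the FPKM of *Hspa8* in each library (linear y axis from 0) by group. Points are single mice (filled: late numbers, open: early numbers) and bars are mean ± SD. Homo-M libraries lie at 1.30 to 1.73 and WT-M libraries at 0.789 to 1.26.

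Genes that work with CCT were read from lists, beside the same 1.27% of genes called lower. Prefoldin, which hands actin and tubulin chains to CCT, had 1 of 6 subunits lower in Homo-M mice, *Pfdn2* (log2 fold change -0.41, adjusted p = 0.0472 by limma), and 0 higher, and its median was 0.12. Of the 3 phosducin-like and thioredoxin-like cofactors of CCT 0 passed, and *Pdcl3* and *Txndc9*, the most abundant, gave -0.18 and 0.37. Among 17 genes of CCT substrates 1 was lower, the tubulin gene *Tubb2a*. It went from 95.6 ± 6.08 FPKM (SD, n = 5) in WT-M to 64.0 ± 7.68 (SD, n = 5) in Homo-M mice (log2 fold change -0.67, standard error 0.14, adjusted p = 0.00988 by limma). All 17 estimates were below 0, as were 46.2% of all genes tested and 55.7% of those at 10 FPKM or more. The median of the 17 was -0.26, but neither *Actb* (-0.47, adjusted p = 0.231) nor *Actg1* (-0.24, adjusted p = 0.440) passed. The tubulin cofactors, which act on tubulin released by CCT, had 0 of 5 past the threshold and a median of -0.11, with *Tbca* at 0.22 and *Tbcb* at -0.35. All WT-M mice had late numbers, so genotype and number range are mixed in the values of these lists. In early against late numbered Het-M and Homo-M mice, 8 of the 17 substrate genes were lower by limma and 0 higher, with a median of -0.37. Lower calls were made there for 6.9% of genes. The part of the number range in these lists was not tested.

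Further HSP70 and HSP90 machinery had 4 of 10 genes lower, *Hspa1b* (stress-induced HSP70, which can share reads with *Hspa1a*), *Stip1* (which links HSP70 to HSP90), *Ahsa1* (which activates the HSP90 ATPase) and *Ptges3* (the HSP90 cochaperone p23), with a median of -0.47. *Hspa1b* went from 4.93 ± 4.26 FPKM (SD, n = 5) in WT-M to 0.108 ± 0.0921 (SD, n = 5) in Homo-M mice (log2 fold change -4.04, adjusted p = 0.0244 by limma). The Homo-M libraries lay at 0 to 0.2349 FPKM, so the size of this fold change depends on the pseudocount of 0.1. Single mice varied widely, from 0.2594 to 10.6885 FPKM in WT-M, 0.129 to 6.3126 in WT-F, 0.0806 to 10.4134 in Het-F and 0.2468 to 6.9933 in Homo-F. In Het-M the range was 0.1255 to 0.8494. The change was -0.50 for *Stip1* (adjusted p = 0.0332), -0.58 for *Ahsa1* (adjusted p = 0.0361) and -0.44 for *Ptges3* (adjusted p = 0.0391). The mitochondrial chaperonin, a separate machine, had 0 of 2 genes past the threshold, with *Hspd1* at -0.56 (adjusted p = 0.0678) and its lid *Hspe1* at 0.22 (adjusted p = 0.496). The heat shock factors *Hsf1* and *Hsf2* gave 0.13 and 0.00, and 0 of 2 passed. In Het-M mice 1 gene of these lists passed, *Hsp90ab1* (-0.92, adjusted p = 0.0379 by limma), and in females 0. Number range is mixed in here as well. In early against late numbers, 5 of the 10 further machinery genes were lower by limma and 0 higher, with a median of -0.39. Of the 5 HSP genes of the study 3 were lower and 0 higher, with a median of -0.39.

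Across the 30 libraries, with the mean of each group taken off, the subunits tended to move together. The 28 pairs had a median Pearson r of 0.59, from -0.20 for *Cct2* with *Cct6a* to 0.81 for *Cct7* with *Cct8*. *Cct7* and *Cct3* had the highest medians with the other subunits, 0.77 and 0.69, and *Cct6a* the lowest, 0.28. *Cct6a* went most closely with *Cct4* (0.62). With *Hspa8* the r was 0.61 for *Cct7*, 0.54 for *Cct5* and *Cct8*, and 0.02 for *Cct6a*. The 30 points share depth and the early and late number ranges, and the values are descriptions without a test. The r of pairs of other genes was not worked out, so these values are not shown to be particular to CCT.

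**Figure D5:**
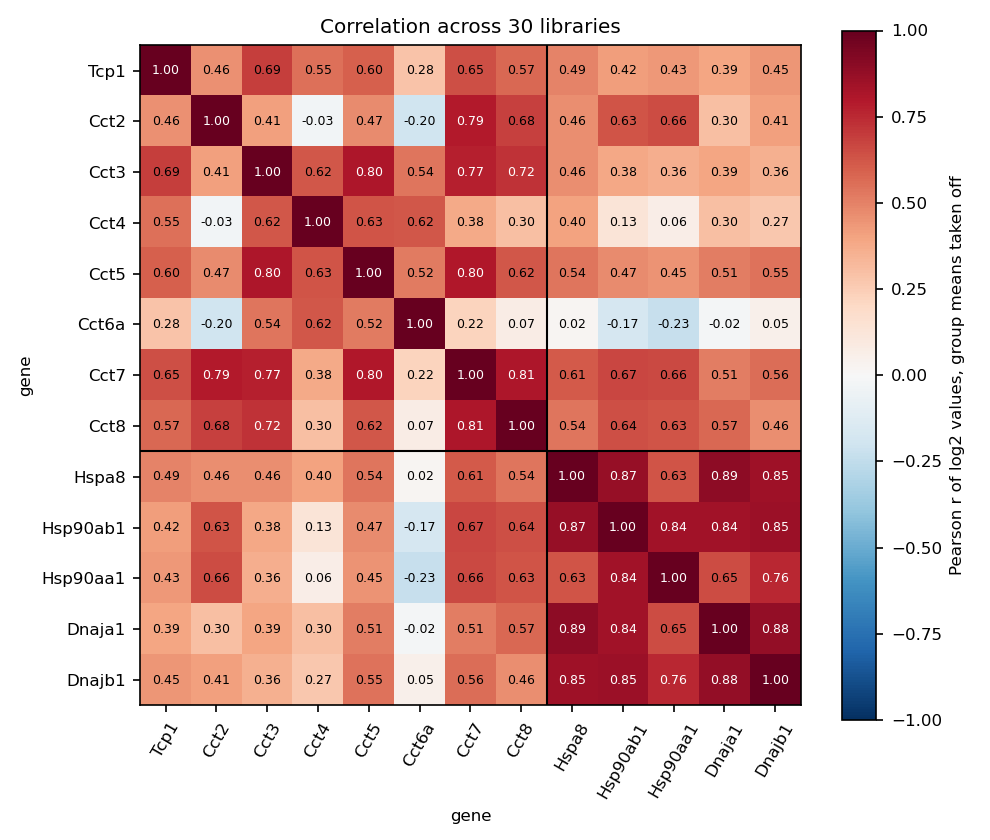
Pearson r between log2 levels of the 8 subunits and 5 HSP genes (both axes) over 30 libraries after the group means were taken off. *Cct7* and *Cct8* reach 0.81, and the row of *Cct6a* lies between -0.23 and 0.05 with the 5 HSP genes.

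Ranked by r with the mean of the 8 subunits in the same way, the 10 most alike of 11614 other genes were *Pithd1*, *Txnl1*, *Arhgdib*, *Ywhae*, *Tsg101*, *Vdac3*, *Ldha*, *Fam49b*, *Etfa* and *Calm2*, with r from 0.89 to 0.85. *Txnl1* encodes a thioredoxin-like protein of the proteasome, *Ldha* lactate dehydrogenase and *Calm2* calmodulin. *Actb* ranked 725, with an r of 0.63, *Hspa8* 900, with 0.60, and *Hsp90ab1* 1058, with 0.58, so an r near 0.60 was reached by many genes.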

How the data were processed

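The authors aligned paired reads of SMARTer and Nextera XT libraries to mm10 with OSA4, estimated abundance per gene of the Ensembl.R84 model with RSEM, and deposited FPKM (fragments scaled to transcript length and to library total) without a logarithm. In the table, 6 columns that match no listed sample were not used. The study reports that it removed 6 samples with few uniquely mapped reads and high duplication. Whether these are the unused columns was not tested. The study's own DESeq2 fit needs counts and was not repeated, and the read total of each library is unknown.

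Libraries were scaled by median-of-ratios size factors, from genes at a mean FPKM of 1 or more, which moved the median of all genes by 0.08 (log2) in Homo-M mice. A pseudocount of 0.1 was added, so fold changes are on the log2(FPKM + 0.1) scale and understate low genes. After a filter at a mean FPKM of 0.1, the remaining 16897 genes were fitted in all 6 groups together with limma 3.58.1 (trend) in R 4.3.3, with Benjamini-Hochberg adjustment over all of them. The script was checked on simulated data. Two-sided exact permutation tests used FPKM as deposited (Python 3.11.15, scipy 1.17.1). Positions come from GENCODE M21 on GRCm38 and promoters from RefSeq on GRCm38.p6.

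The text names all 8 subunits, members of each list that passed (or the 2 most abundant), and the 10 genes most alike. The subunits and lists were chosen with earlier results of these data known. Settings also tried were array weights, another pseudocount, filter or scaling, the groups compared alone, the number range as a covariate, late numbers alone, *Hsp90ab1* as reference, a fold limit, and leaving out each library. The lncRNA covariate (in the contrasts and in early against late numbers) and the fit without both Het libraries named above were added after the data were seen.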

Additional observations from a re-analysis of the deposited data

How the results depend on the processing

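The 3 subunits called lower in Homo-M mice became 0 with a fold change above 1.5 as well, with every gene above 0 tested, with the number range or the lncRNA index as a covariate, with late numbered mice alone, and in a fit of Homo-M and WT-M alone. They were 2 without scaling and without the libraries Het-F-0206 and Het-M-0199, and 3 under the other settings. Leaving out a library gave 0 to 4. The covariate for number range and the late numbered mice also shrank the log2 fold changes, whereas the fit of the 2 groups alone and the wider filter left them nearly as they were. The count relative to *Hspa8* was 4 with the fold limit and 7 to 8 with a library left out. In early against late numbers it was 2 without scaling, 0 with the lncRNA index and 0 to 5 with a library left out. The other 6 counts were 0 under each setting run.

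In the 4 contrasts with WT, directions reversed for estimates near 0. *Cct6a* in Het-M mice (-0.02) became 0.0534 without scaling, 0.0021 with the number range and 0.0239 with late numbers alone, and lay between -0.0595 and 0.0324 with a library left out. *Cct6a* in Homo-M mice (0.04) lay between -0.0024 and 0.0916 with a library left out. In Homo-F mice *Cct2* lay between -0.0791 and 0.0398 and *Cct7* between -0.0911 and 0.0152 with a library left out. *Cct2* in Het-F mice (0.07) became -0.0449 with the number range.

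No paired analysis was possible because each mouse number occurs once. FPKM without read totals give no counting error, and groups of 4 to 6 mice limit the precision.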
